A study of Mus musculus with 14 samples.

Results

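Conjugating enzymes and carboxylesterases of mouse liver were followed as 91 genes of the 55357 listed in the count files. Membership was set by gene symbol: the UDP-glucuronosyltransferases (Ugt1, Ugt2 and Ugt3), sulfotransferases (Sult), cytosolic and mitochondrial glutathione S-transferases (Gst), microsomal glutathione S-transferases (Mgst), carboxylesterases (Ces) and epoxide hydrolases (Ephx), with 8 pseudogenes of the 99 matching symbols left out. RNA of whole liver was compared between 8 model and 6 control samples of male C57BL/6 mice, 5 to 6 weeks old and weighing 21.5 to 25 g. The model group was injected into the abdomen with LPS (lipopolysaccharide from the outer membrane of bacteria) at 10 µg/kg and with D-GalN (D-galactosamine, which traps uridine nucleotides in hepatocytes) at 300 mg/kg, and was killed 24 h later with the state given as acute liver failure. The control group received saline, and both agents were always given together, at a single dose and time. The labels do not state that each sample came from a separate animal, so the p-values below measure the spread between these samples, which may be technical.

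These enzymes make foreign compounds, bilirubin, bile acids and hormones easier to excrete. A UGT attaches glucuronic acid from UDP-glucuronic acid, a SULT attaches sulfate from the donor PAPS, and a GST or MGST attaches glutathione, while carboxylesterases split esters and amides and epoxide hydrolases open reactive epoxides. Many are highly expressed in hepatocytes, some under the xenobiotic receptors encoded by Nr1i2, Nr1i3 and Ahr and the oxidative stress factor encoded by Nfe2l2.

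Model libraries held 10329469 to 16639972 reads in genes and control libraries 7914120 to 14463540. Levels are in CPM, the reads of a gene relative to the library total after TMM scaling, which sets the bulk of genes equal between libraries. Scaling by plain library totals moved the median log2 fold change of all tested genes from 0.01 to -0.23 and that of the members from 0.18 to -0.08. Libraries of both groups also differed in how strongly long genes were represented. With genes split into 5 classes by exonic length, the log2 level of the longest class minus that of the shortest, centred over all libraries, ran from -0.55 to 1.21 in model and from -1.12 to 0.93 in control. Hepatocyte markers were present in every library, with 7 genes summing to 76224 to 86051 CPM in model and 49468 to 68974 CPM in control. Neutrophil markers summed to 1092 to 2747 CPM in model and 2.61 to 16.3 CPM in control, where Ly6g was at 0 in all 6 libraries. In whole tissue, fewer cells of a type and less RNA per cell cannot be told apart.

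Of the 91 members, 60 had enough counts to be tested, and 17 of these (28.3%) differed between model and control livers, against 47.9% of all 12915 genes tested. Among the members 9 were higher and 8 lower in model livers, where 26.6% of all tested genes were higher and 21.3% lower (edgeR's quasi-likelihood test, Benjamini-Hochberg adjusted p under 0.05 over all tested genes). Scaled by library totals, 16 members were called, 1 higher and 15 lower, against 50.2% of all tested genes, 19.6% higher and 30.6% lower. Many members are abundant in liver, and in the class at or above 100 CPM in control livers 9 of 30 members were called, against 32.9% of all genes of that class. In the class from 10 to 100 CPM, 2 of 19 members were higher and 2 lower, against 16.8% and 28.2% of all genes of that class. From 1 to 10 CPM, 2 of 11 members were higher and 2 lower, against 28.1% and 19.7%. Changes of at least 2-fold were fewer: 2 members were higher (Ugt1a5 and Ugt1a6b), against 20.3% of all tested genes, and 3 were lower (Ugt1a6a, Gstt2 and Sult1c2), against 12.7%. With TMM scaling the ranges of the groups did not overlap in 4 members, against 23.2% of all tested genes. Ces1c, Ces2e and Sult1a1 were such members with higher values in model livers, against 14.6% of all tested genes, and Ugt1a6a with lower values, against 8.63%. Per library total, the ranges of Ces1c, Ces2e and Sult1a1 did overlap.

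**Figure D1:**
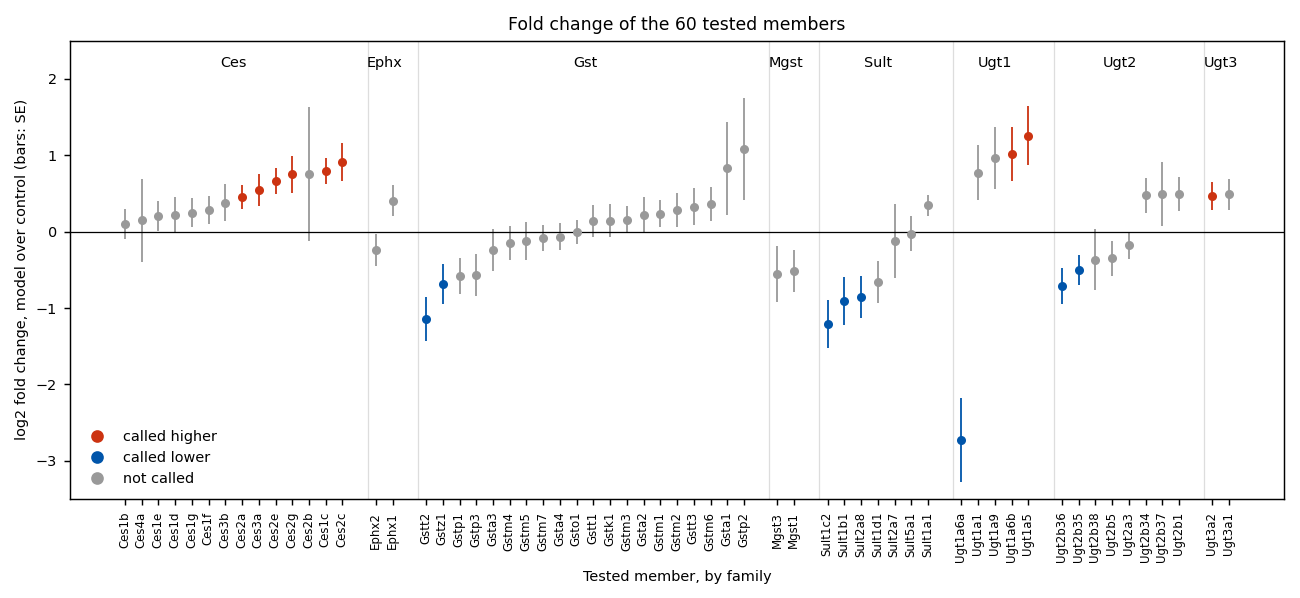
Log2 fold change of each of the 60 tested members (model over control, TMM scaling, bars are the standard error), grouped by family and coloured by call. All 14 carboxylesterase points lie above 0 on this scale (9 of 14 when scaled by library totals), while 6 of 7 sulfotransferase points lie below it on both scales and the Ugt1 genes span both the highest and the lowest point.

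By level per kilobase of exon in control livers, Mgst1 stood first at 3462 CPM per kb, followed by Gstp1 at 1162, Ces1c at 721, Gstm1 at 677 and Sult2a8 at 604. In model livers the same scale gave 2419 for Mgst1, 777 for Gstp1, 1255 for Ces1c, 798 for Gstm1 and 334 for Sult2a8. Ces1c thus took the second place of these 5 in model livers and Sult2a8 stayed last.

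The carboxylesterases hydrolyse esters, amides and lipids in the endoplasmic reticulum, or in plasma once secreted. With TMM scaling 6 of 14 tested members were higher and none lower, with a median log2 fold change of 0.42 over the 14, against 0.01 over all tested genes. With library totals 1 of the 6 (Ces1c) was still called and the median was 0.13, against -0.23. Ces1c encodes the carboxylesterase that mouse liver secretes into plasma. It read 1429, 1648 and 1945 CPM as the lowest, median and highest control library and 2336, 2845 and 3741 CPM in model. With TMM scaling every model library lay above every control library. Per library total they overlapped, since control 6 held 35539 reads of 14463540 and model 7 held 39177 of 16639972. The log2 fold change was 0.80 (SE 0.17, adjusted p = 0.000887), and with library totals it was 0.53 (adjusted p = 0.00806).

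The other called carboxylesterases were mostly of class 2, enzymes that prefer a small acyl and a large alcohol group. In that class 4 of 5 tested genes rose with TMM scaling and none was called with library totals. Ces2e read 113, 134 and 171 CPM as lowest, median and highest control library and 183, 220.2 and 267 CPM in model, again with no overlap on the TMM scale (log2 fold change 0.66, SE 0.17, adjusted p = 0.00381, and 0.0511 with library totals). Ces2c read 21.6, 31.9 and 59.1 CPM in control and 42.7, 56.0 and 90.0 CPM in model (0.91, SE 0.25, adjusted p = 0.00544, and 0.0568 with library totals). Its groups overlapped only through control 3, the library at 59.1 CPM, and without that library the log2 fold change was 1.15. Ces2g had a log2 fold change of 0.75 (SE 0.24, adjusted p = 0.0159), and Ces2a, the most abundant of the class, had 0.45 (SE 0.16, adjusted p = 0.0266). Both overlapped between groups. Without model 2 both lost their call, at adjusted p = 0.0559 and 0.0815, and Ces2a also lost it without control 4 or control 5 (adjusted p = 0.0611 and 0.0652).

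Ces3a, which encodes a hepatocyte lipid hydrolase and overlaps Gm45724 on the other strand, ranged from 742 to 1559.9 CPM in control and from 1306 to 2431 CPM in model. Its log2 fold change was 0.54 (SE 0.21, adjusted p = 0.0411), and the call held when 6 of the 14 libraries were left out in turn and not for the other 8. Ces1d, which encodes a hepatocyte triacylglycerol hydrolase, gave 494 ± 43.2 CPM in control (SD, n = 6) and 574 ± 213 CPM in model (SD, n = 8). The log2 fold change of Ces1d was 0.22 (adjusted p = 0.470), and the SD shows a wider spread among the model libraries than among the controls. Summed over all carboxylesterases, control libraries held 3966 to 5708 CPM and model libraries 5677 to 8686 CPM, so the groups met only at the edge. With library totals the sums overlapped widely, at 3796 to 7213 and 5784 to 7473 CPM. Ces1c made up 32.6% to 36.0% of the control sums and 35.6% to 44.8% of the model sums. With TMM scaling the sum of the 7 hepatocyte markers was also higher in every model library than in any control library, and it was mostly Alb. With library totals the marker sums overlapped, and control 6 lay above model 3. Each sum is then multiplied by the TMM factor of its library, 1.27 in control 6 and 0.768 in model 3. Singly and with TMM scaling, Alb, Ass1 and Tat were called higher, and the ranges of the groups overlapped for all 7. Apoa1 and Ttr lay on the other side of 0 (log2 fold change -0.24 and -0.083, neither called). The part of these markers in the carboxylesterase result was not tested.

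All 6 called carboxylesterases moved the same way with TMM scaling. The start regions of 3 of them are shown, picked because each holds a motif match. They are RefSeq sequences of build GRCm38.p6, 250 bases before to 50 after the annotated start, written in the direction of the gene: Ces1c at chr8:93131234-93131533 on the minus strand, Ces2c at chr8:104846818-104847117 on the plus strand and Ces2e at chr8:104926010-104926309 on the plus strand. Capitals mark a match to TTGCNNAA (C/EBP family, either strand) in Ces1c and Ces2e, with first bases at -239 and -93 from the start, and to a kappa B site (NF-kB family, either strand) in Ces2c at -141.
Ces1c: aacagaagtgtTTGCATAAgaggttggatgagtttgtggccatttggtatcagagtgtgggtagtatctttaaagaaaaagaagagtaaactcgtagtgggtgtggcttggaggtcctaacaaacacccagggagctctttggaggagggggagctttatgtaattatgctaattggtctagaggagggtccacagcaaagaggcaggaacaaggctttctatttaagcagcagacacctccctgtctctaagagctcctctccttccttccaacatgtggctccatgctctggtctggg
Ces2c: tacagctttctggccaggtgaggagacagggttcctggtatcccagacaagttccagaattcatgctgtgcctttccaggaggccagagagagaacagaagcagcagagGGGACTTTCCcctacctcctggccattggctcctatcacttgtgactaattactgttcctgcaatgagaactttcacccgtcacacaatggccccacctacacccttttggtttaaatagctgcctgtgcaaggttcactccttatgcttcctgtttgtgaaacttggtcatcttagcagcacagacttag
Ces2e: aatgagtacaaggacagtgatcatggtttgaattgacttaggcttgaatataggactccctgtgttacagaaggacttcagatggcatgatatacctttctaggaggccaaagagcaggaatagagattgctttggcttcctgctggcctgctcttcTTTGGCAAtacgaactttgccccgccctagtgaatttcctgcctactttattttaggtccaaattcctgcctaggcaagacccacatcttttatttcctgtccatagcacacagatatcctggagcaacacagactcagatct
The first motif was found in 10.8% and the second in 0.155% of 32851 RefSeq start regions of this length. Of the called carboxylesterases not shown, Ces2a also held the first motif, and no match to either was recorded for Ces2g and Ces3a. A match describes these letters and is not a measured binding site.

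Among the epoxide hydrolases, neither tested gene was called with TMM scaling. Their median log2 fold change was 0.08, but it was -0.21 with library totals, -0.068 with upper-quartile factors and -0.013 without control 4. Ephx1, the microsomal enzyme that acts on xenobiotic epoxides, gave 253 ± 73.2 CPM in control (SD, n = 6) and 336 ± 67.7 CPM in model (SD, n = 8), a log2 fold change of 0.40 (SE 0.20, adjusted p = 0.109, and 0.0158 without control 6). Ephx2, the soluble enzyme that acts on fatty acid epoxides, gave 549 ± 106 and 466.1 ± 116 CPM, a log2 fold change of -0.24 (SE 0.21, adjusted p = 0.363). With library totals Ephx2 was called lower, at -0.53 (adjusted p = 0.0360). Ephx3 and Ephx4 stayed below 1 CPM in every library and were not tested.

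**Figure D2:**
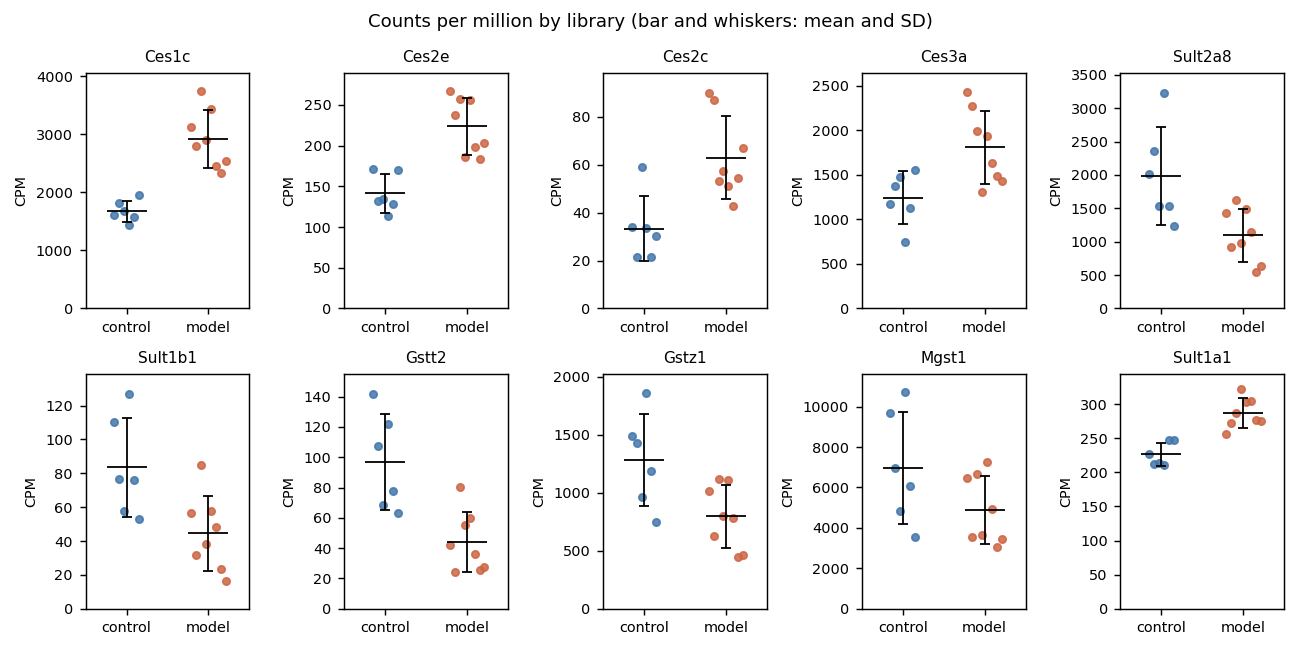
CPM of 10 members in each of 6 control and 8 model libraries (points), with the mean and SD as bar and whiskers (TMM scaling, linear axes from 0). The model points of Ces1c, Ces2e and Sult1a1 lie above all control points, whereas those of Ces2c, Ces3a, Sult2a8, Sult1b1, Gstt2, Gstz1 and Mgst1 overlap the controls; with library totals Ces1c is the only one of these higher in the test.

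The Ugt1 genes moved in both directions, with 2 of 5 tested higher, 1 lower and a median log2 fold change of 0.96. They are alternative first exons spliced to common last exons at a single locus on chromosome 1, so each encodes its own substrate-binding part. In the GENCODE annotation of build GRCm38, 50.3% to 60.6% of the exonic length of the 5 tested genes is shared with other Ugt1 genes, and how reads in that shared part were counted is not stated. Gm20528 overlaps the locus on the other strand. Ugt1a1, the bilirubin-conjugating form, read 14.8, 41.6 and 127 CPM as lowest, median and highest control library and 80.3, 88.9 and 150.0 CPM in model. The controls spread far more widely than the model libraries, and the log2 fold change of 0.77 (SE 0.36) missed the threshold at adjusted p = 0.0884 (without control 6 it was 1.20, adjusted p = 0.00770, and limma-voom gave 1.06, adjusted p = 0.0223). Ugt1a5 read 1.67, 5.16 and 13.7 CPM in control and 6.94, 12.8 and 20.3 CPM in model, a log2 fold change of 1.26 (SE 0.39, adjusted p = 0.0125). Ugt1a6b, a form that takes up small planar phenols, read 2.83, 6.78 and 21.7 CPM in control and 14.2, 18.1 and 31.8 CPM in model, a log2 fold change of 1.01 (SE 0.36, adjusted p = 0.0258). Control 6 was the highest control library for Ugt1a1, Ugt1a5 and Ugt1a6b and lay within the range of the model libraries for all 3. With library totals neither Ugt1a5 nor Ugt1a6b was called (adjusted p = 0.0718 and 0.161), and Ugt1a6b also lost its call without model 2, control 2, control 4 or control 5. Ugt1a9, another phenol-conjugating form, had a log2 fold change of 0.96 (SE 0.41, adjusted p = 0.0599). Ugt1a9 was called higher with the DESeq2 test (adjusted p = 0.0413), limma-voom (adjusted p = 0.0209) and in 3 of 14 fits that left out a library, but not with library totals.

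Ugt1a6a, a close copy of Ugt1a6b, was the only Ugt1 gene lower in model livers. It was scarce, with 169 reads over the control libraries and 31 over the model libraries. It read 1.03, 2.02 and 3.76 CPM as lowest, median and highest control library and 0, 0.420 and 0.685 CPM in model. No model library reached the lowest control library, and 2 of them were at 0. The log2 fold change was -2.73 (SE 0.55, adjusted p = 0.000530), and -3.00 with library totals (adjusted p = 0.000153). Of its 100-base exonic windows 50.4% recur elsewhere in the annotated transcripts, against 70.9% for Ugt1a6b, so the split of reads between the pair is uncertain. Ugt1a7c and Ugt1a10 were too low to be tested, with 72 and 61 reads over the model libraries and 5 and 13 over the controls.

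**Figure D3:**
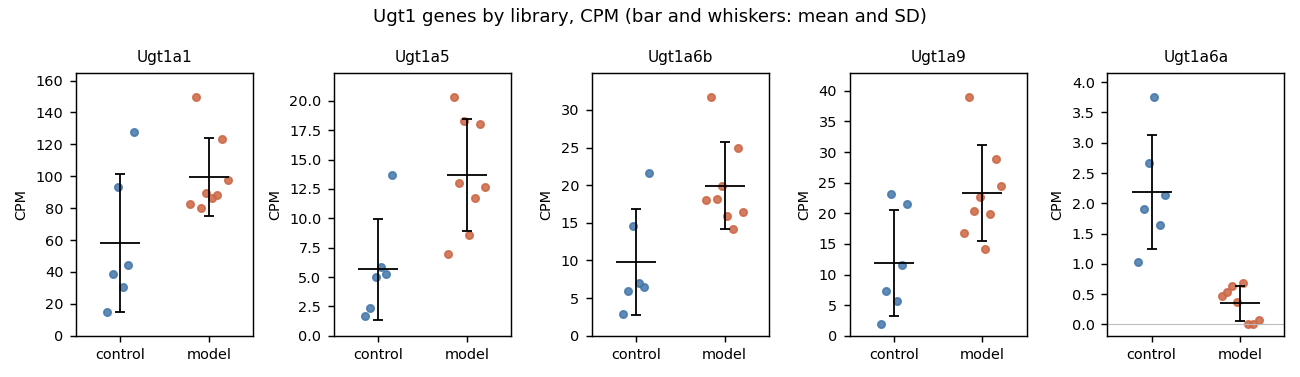
CPM of the 5 tested Ugt1 genes in each of 6 control and 8 model libraries (points), with mean and SD as bar and whiskers. Ugt1a6a lies lower in every model library than in any control library (on library totals its log2 fold change is -3.00), while for the other genes the model points lie mostly above the controls and overlap them through control 6 and, except for Ugt1a5, control 3; none of those 4 was called higher with library totals.

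The start regions of Ugt1a6a and Ugt1a1 are shown because both lead into the same last exons yet gave values on opposite sides of 0. They are RefSeq sequences of build GRCm38.p6 on the plus strand, at chr1:88134559-88134858 and chr1:88211709-88212008, from 250 bases before to 50 after the annotated start. Capitals mark the match to TTCNNNGAA (STAT family, either strand) in Ugt1a6a, whose first base lies at -121.
Ugt1a6a: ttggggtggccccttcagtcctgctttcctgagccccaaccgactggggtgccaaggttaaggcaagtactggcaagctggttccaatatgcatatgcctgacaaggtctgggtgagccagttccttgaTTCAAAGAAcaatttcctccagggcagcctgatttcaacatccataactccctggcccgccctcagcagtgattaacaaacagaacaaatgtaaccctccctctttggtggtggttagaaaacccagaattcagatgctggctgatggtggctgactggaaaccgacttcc
Ugt1a1: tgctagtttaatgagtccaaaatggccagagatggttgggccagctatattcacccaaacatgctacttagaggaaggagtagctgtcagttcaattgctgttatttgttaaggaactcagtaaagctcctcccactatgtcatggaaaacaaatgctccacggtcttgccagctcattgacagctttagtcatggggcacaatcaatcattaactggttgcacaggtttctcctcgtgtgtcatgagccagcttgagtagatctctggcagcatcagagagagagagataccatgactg
That motif was found in a start region of 9.55% of the 27025 genes in the RefSeq table and in 8 of the 77 members that had an entry there. None of the 11 motifs searched was found in the window of Ugt1a1.

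The Ugt2 genes encode the main UGTs for steroids, bile acids and many drugs. Among 8 tested, none was called higher and 2 were lower, with a median log2 fold change of -0.27. With library totals 4 were lower and the median was -0.52, and with upper-quartile factors it was -0.41. Without model 7 and model 8 the calls turned, with Ugt2b1 and Ugt2b34 higher, none lower and a median of -0.07. The median was -0.17 without control 3 and -0.15 without model 3 and model 4. Ugt2b36 read 674, 969 and 1449 CPM as lowest, median and highest control library and 415, 581 and 913 CPM in model, a log2 fold change of -0.71 (SE 0.24, adjusted p = 0.0199). In Ugt2b36, 3 of 6 control libraries lay above every model library and the others overlapped them. It lost its call without control 1 (adjusted p = 0.0531) or control 4 (adjusted p = 0.0570). Ugt2b35 had a log2 fold change of -0.50 (SE 0.20, adjusted p = 0.0449), a call that held in 5 of 14 fits that left out a library. Ugt2b5, at 901 ± 177 CPM in control (SD, n = 6) and 707 ± 224 CPM in model (SD, n = 8), was not called (adjusted p = 0.206). With library totals Ugt2b5 was called lower, at -0.61 (adjusted p = 0.00585). Ugt2b1 lay on the other side, at 442 ± 93.0 and 621 ± 189 CPM, with a log2 fold change of 0.49 (SE 0.22, adjusted p = 0.0763, and 0.0354 without model 8). As a share of the Ugt2 sum, Ugt2b36 had a median of 32.7% in control and 23.0% in model libraries, and Ugt2b1 of 13.7% and 21.9%. These shares do not depend on the scaling of the library. Ugt3a2, of a small family that uses UDP-sugars other than UDP-glucuronic acid, was higher in model livers at 0.46 (SE 0.18, adjusted p = 0.0422). That call was lost with library totals (adjusted p = 0.478) and in 8 of 14 fits that left out a library. Its neighbour Ugt3a1 had 0.49 (SE 0.20, adjusted p = 0.0544) and was called in 4 of those 14 fits.

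With TMM scaling in edgeR the sulfotransferases were lower or not called. Of 21 genes, 7 were tested and 7 had no read in any library. Among those tested 3 fell and none rose (median log2 fold change -0.66), and with library totals 4 fell. The median was -0.40 without control 4, where 1 gene was still called, -0.43 without model 7 and model 8, where 1 gene was higher and 2 lower, and -0.31 with a correction for exonic length and GC content. With no filter on low counts it was 0.07 over 14 genes, and the scarce Sult1e1 and Sult6b2 were called higher. Sult2a8, which sulfates bile acids in mouse liver, was the most abundant, with 1233, 1778 and 3221 CPM as lowest, median and highest control library and 553, 1064 and 1626 CPM in model. Its log2 fold change was -0.86 (SE 0.27, adjusted p = 0.0159), and without control 4, the library at 3221 CPM, it was -0.67 (adjusted p = 0.0553). Sult1b1, which sulfates thyroid hormones and phenols, read 53.2, 76.4 and 127 CPM in control and 16.2, 43.2 and 84.9 CPM in model (-0.90, SE 0.32, adjusted p = 0.0256). Without control 1 or control 4 it was no longer called, and its highest adjusted p with a library left out was 0.0744. Sult1c2 was scarce, at 3.50 ± 1.07 CPM in control (SD, n = 6) and 1.51 ± 0.682 CPM in model (SD, n = 8), yet kept its call in all 24 alternatives of the unpaired design (-1.21, SE 0.31, adjusted p = 0.00402).

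Sult1a1, the main phenol sulfotransferase, lay on the other side from these. It read 211, 219.7 and 248 CPM as lowest, median and highest control library and 256, 282 and 323 CPM in model. With TMM scaling all model libraries lay above all controls. Even so the log2 fold change of 0.34 (SE 0.14) gave adjusted p = 0.0546, and with library totals it was 0.10 (adjusted p = 0.634). Sult1a1 was called higher with the DESeq2 test (adjusted p = 0.0135), limma-voom (0.0383), the stricter filter on low counts (0.0412), and without model 7 and model 8 (0.0234), model 8 (0.0499) or control 6 (0.0260). Sult1a1 overlaps Sgf29 on the other strand in the GRCm38 annotation, so its reads may include reads of that gene. Sult1d1, which sulfates catecholamines and other phenols, had a log2 fold change of -0.66 (SE 0.28, adjusted p = 0.0609). Without control 4, its highest control library at 306 CPM, the value was -0.40. Sult1d1 was called lower with library totals (-0.88, adjusted p = 0.00449), upper-quartile factors (adjusted p = 0.0353) and the DESeq2 test (adjusted p = 0.0450). It was also called lower in 4 of 14 fits that left out a library, and without model 3 and model 4 (adjusted p = 0.0078). Summed over the family, control libraries held 1660.1 to 3881 CPM and model libraries 929.7 to 2201 CPM. With library totals the sums did not overlap, at 2098 to 3715 in control and 937 to 1689 CPM in model.

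**Figure D4:**
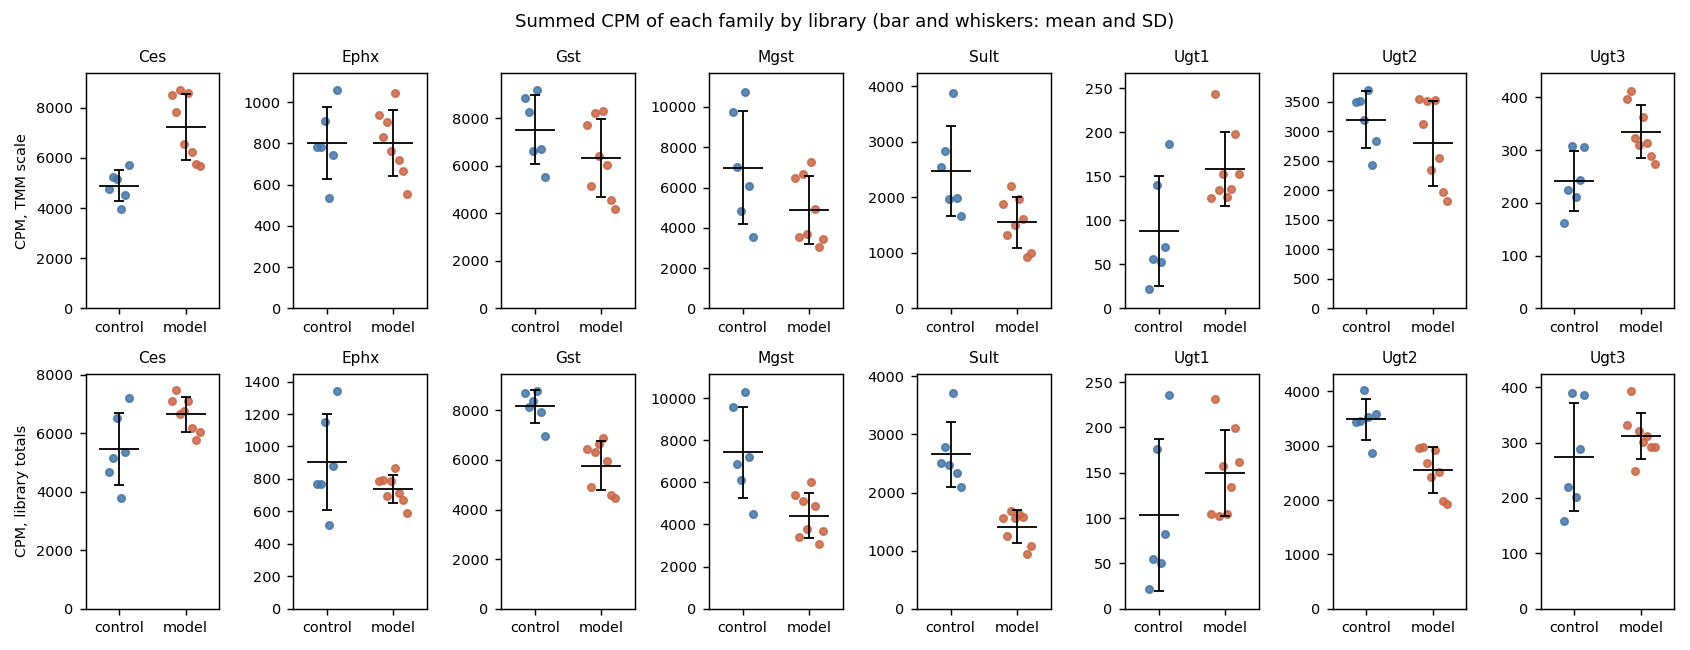
Summed CPM of each family in each of 6 control and 8 model libraries (points), with mean and SD as bar and whiskers, on the TMM scale (top row) and on library totals (bottom row). The Ces sums lie mostly higher in model on the TMM scale and overlap on library totals, whereas the Sult and Gst sums overlap on the TMM scale and separate, lower in model, on library totals.

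The glutathione S-transferases formed the largest family, and 18 of 20 tested members were not called. With TMM scaling 2 were lower, 10 of 20 lay above 0 and the median log2 fold change was 0.07. With library totals 4 were lower, 5 lay above 0 and the median was -0.18, and with upper-quartile factors it was -0.077. Gstt2, a theta-class enzyme, read 63.1, 92.6 and 142 CPM as lowest, median and highest control library and 24.3, 39.1 and 80.2 CPM in model. The log2 fold change was -1.14 (SE 0.28, adjusted p = 0.00305), with 7 of 8 model libraries below all controls, and it was called in all 24 alternatives of the unpaired design. Gstz1, which also acts in tyrosine breakdown as maleylacetoacetate isomerase, read 750.4, 1305 and 1859 CPM in control and 448, 792 and 1119 CPM in model (-0.69, SE 0.26, adjusted p = 0.0355). It kept that call in 7 of 14 fits that left out a library, and it overlaps Pomt2 on the other strand.

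The abundant liver forms other than Gstz1 did not pass the test. Gstp1, the pi-class enzyme that is abundant in male mouse liver, read 1158, 1908 and 2462 CPM in control and 735, 1054 and 1962 CPM in model, a log2 fold change of -0.58 (SE 0.24, adjusted p = 0.0541). With each of the 3 other scalings it was called lower, and with TMM scaling in 4 of 14 fits that left out a library. Gsta3, the main alpha-class form, gave 2291 ± 669.7 CPM in control (SD, n = 6) and 1939 ± 737 CPM in model (SD, n = 8), with adjusted p = 0.493. Gstm1, the main mu-class form, gave 998 ± 202 and 1176 ± 193 CPM, with adjusted p = 0.290. Gsta2 had a log2 fold change of 0.22 (adjusted p = 0.458). All 7 mu-class genes were tested and none was called.

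The microsomal forms are membrane enzymes that also reduce lipid peroxides. Mgst1, the member with the highest level of all 91 per kilobase, read 3556, 6519 and 10698 CPM as lowest, median and highest control library and 3036, 4290.4 and 7249 CPM in model. The groups overlapped over most of their range, and the log2 fold change was -0.52 (SE 0.28, adjusted p = 0.133). With library totals Mgst1 was called lower at -0.75 (adjusted p = 0.00593). Mgst3 had -0.56 (SE 0.37, adjusted p = 0.224). Mgst2, a form close to leukotriene C4 synthase, held 69 reads over the model libraries and 3 over the controls, all 3 in control 1. It was below the filter on low counts. The ratio of its summed reads per scaled total, model over control, was 17.1, with a 95% exact interval of 5.62 to 85.1 that covers counting error only.

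Beside these values the representation of long genes moved within both groups. Control 1 and control 4, where it was lowest at -1.12 and -1.01, had the 2 highest Mgst1 levels, 9703 and 10698 CPM, and the lowest Ugt1a1 levels, 14.8 and 30.4 CPM. Control 6, where it was highest among the controls at 0.93, had their lowest Mgst1 level at 3556 CPM and their highest Ugt1a1 level at 127 CPM. In the model group it was lowest in model 5, at -0.55, which had the highest Mgst1 level of that group, 7249 CPM. It was highest in model 7, at 1.21, which had the lowest Mgst1 level, 3036 CPM. The Ugt1a1 levels of these libraries were 86.2 and 124 CPM. With a correction for exonic length and GC content added to the fit, an alternative chosen after seeing the data, 15 of the 17 called members kept their call and Ugt2b35 and Ugt3a2 did not, while 2 glutathione S-transferases were higher and 4 lower.

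Model 7 and model 8 stood apart from the other model libraries in many members. The representation of long genes was 1.21 in model 7, 0.75 in model 8 and 0.86 in model 2, and its part here was not tested. Positions were counted for the members and not for all tested genes, so whether the pattern is particular to the members was not tested. Model 7 and model 8 lay below all 6 other model libraries in 25 of the 60 tested members and above them in 2. The 2 were Gsta1, an alpha-class form, with 21.2 and 25.0 CPM against 1.87 to 9.00 CPM in the other model libraries and 1.48 to 11.0 CPM in controls, and Gstp2, with 6.56 and 10.8 CPM against 0.453 to 2.31 and 0.412 to 2.60 CPM. Neither gene was called over the whole group. Gsta1 shares 80.6% and Gstp2 46.9% of its 100-base windows with close copies, so their reads are uncertain. The untested Sult1e1, the estrogen sulfotransferase, read 5.48 and 5.38 CPM in the same libraries and at most 0.463 CPM in any other model library and 0.165 CPM in any control. Gclc, the catalytic subunit of the enzyme that starts glutathione synthesis, was at 516 and 388 CPM there, against 56.4 to 139.7 CPM in the other model libraries. Without model 7 and model 8, 16 members were higher and 4 lower (33.3% called), and Sult1b1, Gstz1, Ugt2b36 and Ugt2b35 lost their calls. Of all 12656 genes tested in that fit, 3198 were higher and 2651 lower (46.2% called).

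**Figure D5:**
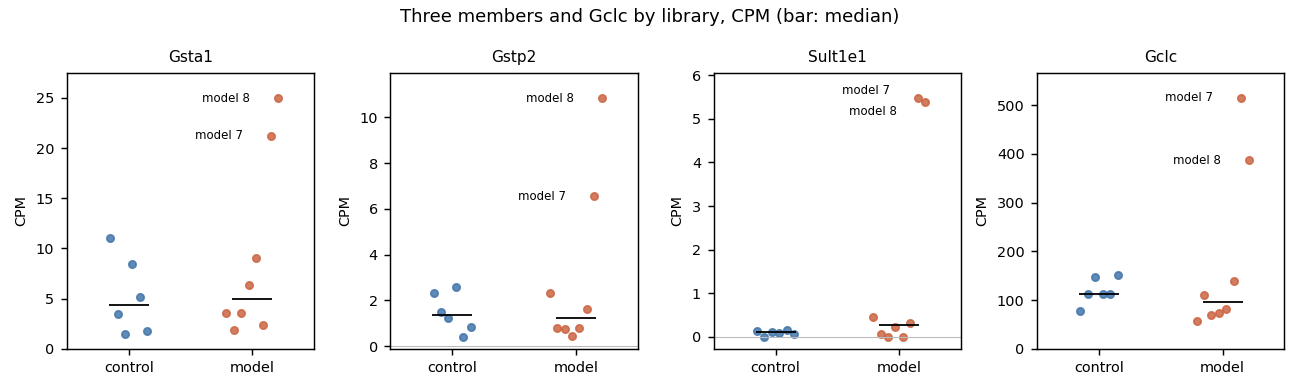
CPM of Gsta1, Gstp2, Sult1e1 and Gclc in each of 6 control and 8 model libraries (points, bars are medians), with model 7 and model 8 named. In all 4 panels these 2 libraries lie above every other library, and the other 6 model libraries overlap the controls.

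Of the 31 members that were not tested, 9 had no read in any library and 16 others stayed below 1 CPM in every library. The other 6 reached 1 CPM in at least 1 library, among them Mgst2, Sult1e1, Ugt1a7c and Ugt1a10. Sult6b2 held 23 reads over the model libraries, in 6 of 8 of them, and none over the 6 control libraries.

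Over the members as a whole, 11 short motifs were searched on both strands of the start regions, and 77 of 91 members had an entry. The C/EBP motif TTGCNNAA was in 20 of the 77 (26.0%), against 12.2% of the 27025 genes in the table, and 3 of those 20 were called higher and 3 lower. TATAAA was in 19 (24.7%), against 15.7%. The core of the antioxidant response element, TGACNNNGC, was in 4 (5.19%), against 14.0%, namely Gsta3, Gstm5, Gstm7 and Mgst1. The NF-kB motif was in 2 (Ces2c and Ces5a), a glucocorticoid receptor element part in 5, TNGCGTG (aryl hydrocarbon receptor) in 3, CAAAGTCCA (HNF4) in Sult1b1 alone and the HNF1 motif in Ces5a alone. TTGCGCAA, which is contained in the C/EBP motif, and the direct repeat of the xenobiotic receptors were in none. Start regions of neighbouring family members can be copies of each other, so these counts are a description.

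Genes that control, supply and serve these enzymes were followed in 5 lists of 70 genes. Of the 67 tested, 16 (23.9%) were higher and 21 (31.3%) lower, together 55.2%, against 26.6% higher, 21.3% lower and 47.9% in all among all tested genes, which is the background for each list below. With library totals the lists gave 10 higher and 29 lower, against 19.6% and 30.6% of all tested genes. Among 17 tested regulators 7 fell and 5 rose (median log2 fold change -0.48). Among those that fell were the xenobiotic receptor genes Nr1i3, from 115 ± 29.3 to 39.7 ± 27.2 CPM (SD, n = 6 and 8; log2 fold change -1.53, adjusted p = 0.00421), and Nr1i2, with -1.12 (adjusted p = 0.00170), and the bile acid receptor gene Nr1h4, with -2.18 (adjusted p = 2.1e-09). Nr0b2, a repressor that Nr1h4 induces, had -2.15 (adjusted p = 0.00188). Nfe2l2 rose from 48.9 ± 10.7 to 148 ± 35.6 CPM (1.59, adjusted p = 5.2e-06), and so did Bach1, which encodes a repressor at the same elements (2.75, adjusted p = 5.2e-05), and Cebpb (2.70, adjusted p = 2.0e-05). The xenobiotic receptor gene Ahr was at 16.6 ± 6.96 CPM in control and 31.6 ± 24.1 CPM in model (SD, n = 6 and 8; 0.92) and was not called (adjusted p = 0.137), nor was Hnf4a (adjusted p = 0.0867).

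Supply of donors moved unevenly. Of 14 genes 2 rose and 4 fell, with a median of -0.34. Slc35b2, the carrier that brings PAPS into the Golgi, had a log2 fold change of -1.80 (SE 0.27, adjusted p = 2.5e-05), and Slc26a1, a sulfate transporter, had -1.63 (SE 0.34, adjusted p = 0.000734). Papss1, a PAPS synthase, had 0.76 (SE 0.29, adjusted p = 0.0364, and 0.266 with library totals), while the liver form Papss2 was not called (adjusted p = 0.882). Ugdh, which makes UDP-glucuronic acid, had -0.49 (SE 0.23, adjusted p = 0.0858), and with library totals it was called lower at -0.73 (adjusted p = 0.0326). For glutathione, Gclm, the modifier subunit, fell from 173 ± 17.9 to 113 ± 9.21 CPM (SD, n = 6 and 8; adjusted p = 0.00182), Gsr, which recycles it, had 0.57 (adjusted p = 0.00320, and 0.0772 with library totals), and Gclc was not called.

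Of 9 export transporters in the list, not all of them carriers of conjugates, 5 rose and none fell, with a median of 1.36. The background was 26.6% higher and 21.3% lower of all tested genes. Abcc1 went from 0.393 ± 0.243 to 8.26 ± 2.47 CPM (SD, n = 6 and 8; log2 fold change 4.31, adjusted p = 2.3e-08), Abcc5 had 2.83 and Abcb1b 2.80. Abcc4, which exports conjugates towards blood, had 1.36 (adjusted p = 0.00465). Abcc2 and Abcc3, the more abundant canalicular and basolateral carriers, were not called (adjusted p = 0.344 and 0.0882). Of 11 tested genes that break conjugates down or process glutathione conjugates further, 4 rose and 4 fell, with a median of 0.14. Arsb (0.82) and Gusb (0.58, the glucuronidase) were among those that rose, although not with library totals, and Acy3 (-1.35), Nat8 (-0.93) and Ggt6 (-0.74) among those that fell. Other conjugating and hydrolysing enzymes outside the chosen families gave 6 lower and none higher of 16 tested, with a median of -0.54, led at 5 CPM or more by the N-acetyltransferase Nat2 (-2.01), the glycine acyltransferase Glyat (-1.75) and the thiopurine methyltransferase Tpmt (-0.89).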

How the data were processed

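Poly(A) RNA of 14 liver samples was sequenced. The authors deposited unnormalised read counts of genes, 1 table per sample. HISAT2 and build GRCm39 are named in the submitters' processing notes. The aligner's version, the counter, its strand setting and the gene annotation are not stated, so reads of overlapping genes on opposite strands cannot be told apart. Summary lines that name no gene held 27.4% to 45.6% of the entries of a library, of which reads aligned to several places made 13.4% to 18.6% of all entries. They were left out of totals and tests.

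Genes passing edgeR's filterByExpr (12915) were compared in R 4.3.3 by the quasi-likelihood test of edgeR 4.0.16, with TMM factors, group as its single term, and Benjamini-Hochberg adjustment over all of them. The script was first tested on simulated data. CPM use TMM-scaled totals, with a prior count of 2 for log values. The SE was derived from the fold change and the F statistic. Exonic lengths, shared 100-base windows and overlaps come from GENCODE annotation of GRCm38, matched by gene identifier, a build other than that of the counts.

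Members and lists were chosen with earlier results of these data known. Named members were, per family, up to 5 called genes in each direction at 5 CPM or more, the 3 most abundant in control, and 17 fixed names. List genes were chosen likewise, up to 3 in each direction per list, with 11 fixed names. Mgst2 and Ephx4 came in as the most abundant of small families. Sult1c2, Ugt1a6a, Gstp2, Ugt1a7c, Ugt1a10, Ugt2b34, Sult6b2, Ephx3 and the members named for motifs were chosen after their values were seen. Alternatives were 3 other scalings, DESeq2 1.42.0, limma-voom (limma 3.58.1), no and a stricter low-count filter, libraries left out, and the replicate number as a block. Same-numbered libraries did not deviate together (correlations -0.34 to 0.36), so the main fit is unpaired. Depth limits genes of few counts, and intervals cover counting error only.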

Additional observations from a re-analysis of the deposited data

Results flagged for a closer look

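Within the groups of 8 and 6 libraries, 150 groups of values were examined, 132 of the 66 named genes and 18 of the family and whole-set sums, and in 9 of them the highest or lowest library lay apart from the others by Dixon's criterion. Chance alone flags about 1 in 20 groups. Among the members, Ces2c was at 59.1 CPM in control 3, with the other controls at 21.6 to 34.0 CPM. Sult1d1 was at 306 CPM in control 4, with the others at 111 to 177 CPM. Ugt1a5 was at 13.7 CPM in control 6, with the others at 1.67 to 5.89 CPM. Mgst2 was at 0.385 CPM in control 1, with the other 5 controls at 0.

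Among the genes that control or serve these enzymes, control 6 was high for Nr1h4, at 156 CPM against 105 to 115 CPM in the other controls, and for Abcc3, at 149.9 CPM against 33.1 to 73.3 CPM. Gclm was low in control 1, at 138 CPM against 175 to 184 CPM. In the model group, Nr1i2 was at 44.5 CPM in model 8 against 11.1 to 26.5 CPM in the others, and Nr0b2 was at 15.03 CPM in model 6 against 0.621 to 4.31 CPM.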

How the results depend on the processing

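Counts of members depended on the scaling and on single libraries. With library totals 1 member was called higher and 15 lower, with upper-quartile factors 5 higher, and without model 7 and model 8 16 higher and 4 lower, against 9 and 8. In the same order, these fits called 2533, 2992 and 3198 of all tested genes higher and 3955, 3514 and 2651 lower, against 3437 and 2751. All 8 members called lower and 1 of the 9 called higher kept their calls with library totals. Leaving out 1 library at a time gave 4 (without model 2) to 15 (without control 6) members higher and 3 (without control 4) to 11 (without control 6) lower, and 7 of the 17 called members kept their call in all 14 such fits. Over all tested genes this gave 2975 to 3983 higher and 2452 to 2809 lower. Over the 5 lists it gave 12 to 19 higher and 19 to 23 lower, and library totals gave 10 higher, against 16.

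The replicate numbers do not pair the libraries, since 1 of 6 same-number correlations was over 0.1. A fit with the replicate number as a block, over model 1 to 6 and control 1 to 6, gave 13 members higher and 3 lower (26.7% called). Of all 12656 genes tested in that fit, 2949 were higher and 2207 lower (40.7% called).

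Single genes were followed over all alternatives in a set of 66. It left out the untested named genes Mgst2, Sult1e1 and Ephx4 and added Sult1c2, Ugt1a6a and Gstp2, chosen after their values were seen. In this set 1449 values kept direction and call, 114 lost and 65 gained a call, and 20 changed sign, none of them called in either fit. With library totals these were Ces1d (-0.062), Gsta2 (-0.0093), Gstm1 (-0.046) and Papss2 (-0.23, and -0.0802 with upper-quartile factors). Without model 7 and model 8, and with the block, they were Gsta3 (0.035 and 0.055), Gsta1 (-0.16 and -0.033), Gclc (-0.37 and -0.41) and Gstp2 (-0.33 and -0.31). Without model 3 and model 4 they were Gsta2 (-0.0043) and Papss2 (-0.041). With a library left out, Papss2 ranged from -0.14 to 0.38. The mean family sum of each group moved by less than 1 SD of that group with library totals, which does not compare model with control. The ratio of the means, model over control, fell in every family, for Ces from 1.48 to 1.22 and for Gst from 0.84 to 0.71. The Sult and Gst sums of the groups overlapped with TMM scaling and separated with library totals. The causes were not tested. Depth limits the 31 untested members, which had too few counts, and how reads in the exons shared by Ugt1 genes were counted is not stated.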
